A study of Mus musculus with 12 samples.

Results

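The genes described here are 9 members of the insulin-like growth factor (IGF) axis and of growth hormone (GH) signaling in cultured mouse hepatocytes: Igf1, Igfals, Igfbp1, Igfbp2, Igfbp3, Igfbp4, Igfbp7, Ghr and Socs2. They were picked by symbol from 22471 features in each table, for their place in the axis and with their levels and differences in these same libraries already known. Their values below are therefore a description, with standard errors and no p-value. Counts of them past a threshold are given further on only beside the share of all genes, and nothing is read from those counts. RNA sequencing was done on primary hepatocytes isolated with collagenase from male C57BL/6J mice 6 weeks old, purified on Percoll and cultured in DMEM with fetal bovine serum. Of 12 libraries, 3 each came from untreated cells (control), cells given 0.2 mM oleic acid bound to albumin (OA), cells given 15 µM benzbromarone (BBR, a drug that lowers uric acid), and cells given both (BBR+OA). Exposure lasted 16 h, and the design asks how BBR alters hepatocyte transcription with and without lipid loading. The sources name the tissue as liver and do not say whether replicates came from separate mice, so every spread below is the spread between these samples, which may be technical. In bulk samples like these, fewer cells of a type and less RNA per cell cannot be told apart.

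In the liver, pituitary GH binds its receptor GHR, which activates the kinase JAK2 and the transcription factor STAT5. STAT5 drives transcription of Igf1, of Igfals and of the feedback inhibitors of the SOCS family. IGF-1 leaves the hepatocyte and travels in blood bound to IGF-binding proteins (IGFBPs), mostly in a ternary complex of IGF-1, IGFBP3 and the acid-labile subunit encoded by Igfals. IGFBP1 is the binding protein that follows nutrition most closely, since insulin represses its gene through FOXO1. Hepatocytes themselves carry very little IGF-1 receptor and respond to insulin through the insulin receptor.

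The 9 genes lie on 6 mouse chromosomes in build GRCm38 and all are annotated as protein coding. Igf1 (ENSMUSG00000020053) spans chr10:87858265-87937042 and Socs2 (ENSMUSG00000020027) spans chr10:95385362-95417180. Igfbp1 (ENSMUSG00000020429, chr11:7197782-7202546, plus strand) and Igfbp3 (ENSMUSG00000020427, chr11:7206086-7213923, minus strand) are neighbours with 3539 bases between their ends. Igfbp4 (ENSMUSG00000017493) lies further along the same chromosome at chr11:99041244-99054392. The others are Igfals (ENSMUSG00000046070, chr17:24865997-24882010), Igfbp2 (ENSMUSG00000039323, chr1:72824503-72852474), Igfbp7 (ENSMUSG00000036256, chr5:77349240-77408041) and Ghr (ENSMUSG00000055737, chr15:3317760-3583492). The antisense gene Igf1os overlaps Igf1, and Polr2b (1431 to 2187 counts per library) and Gm34648 overlap Igfbp7 on the opposite strand. These are overlaps of whole gene spans, and overlap of exons was not examined. Igf1os and Gm34648 were not among the counted features. Whether counting used strand is not given in the sources used here, so it is not known whether any reads of these partners were counted for Igf1 or Igfbp7.

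Upstream sequence is shown for 3 genes: Igfbp1, which had the largest difference of the 9 with OA, Igfbp4, which had the largest with BBR, and Igfals, a gene activated through STAT5. Each run is the 250 bases before a RefSeq transcription start site (GRCm38.p6, plus strand), at chr11:7197537-7197786 for Igfbp1, chr17:24877981-24878230 for the second of 3 start sites of Igfals and chr11:99040994-99041243 for Igfbp4. Capitals mark every match to a searched motif.
Igfbp1: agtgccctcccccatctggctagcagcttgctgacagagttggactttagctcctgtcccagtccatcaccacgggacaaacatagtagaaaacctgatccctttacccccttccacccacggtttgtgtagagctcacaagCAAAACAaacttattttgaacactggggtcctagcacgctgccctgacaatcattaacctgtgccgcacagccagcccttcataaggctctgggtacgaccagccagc
Igfals: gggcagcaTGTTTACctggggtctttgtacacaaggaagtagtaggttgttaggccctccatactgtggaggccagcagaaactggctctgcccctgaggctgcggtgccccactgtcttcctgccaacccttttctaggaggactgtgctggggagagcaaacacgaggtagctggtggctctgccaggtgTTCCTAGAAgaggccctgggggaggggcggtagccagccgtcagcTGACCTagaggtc
Igfbp4: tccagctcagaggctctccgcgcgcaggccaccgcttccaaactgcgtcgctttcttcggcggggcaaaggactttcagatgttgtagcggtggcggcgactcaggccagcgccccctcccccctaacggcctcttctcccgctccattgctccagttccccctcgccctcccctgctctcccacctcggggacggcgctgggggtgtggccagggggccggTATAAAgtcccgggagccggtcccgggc
Motifs were searched on both strands in 12 windows of 8 of the 9 genes and in all 32851 windows of the table. The Igfbp1 window held the insulin response element CAAAACA, a FOXO motif, 108 bases before the start, and 5.56% of all windows held it. The Igfals window held a STAT5 motif TTCNNNGAA at 58 bases (7.02% of windows), a forkhead motif GTAAACA on the minus strand at 242 bases (3.17%) and a single PPAR motif AGGTCA on the minus strand at 13 bases (14.0%). The first Igfals start site had TTCNNNGAA at 236 bases as its only match, and the third had no match. The window shown was thus the one of the 3 with the most matches. In the Igfbp4 window the only match was TATAAA at 28 bases, which 12.4% of windows held. The direct repeat of the PPAR motif (0.0335% of windows) and the ATF4 motif TGATGNAA (3.45%) matched none of the 12 windows.

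Total counts ran from 15485506 to 23668391 per library, so that a count of 0 in a library allowed up to 0.127 to 0.194 CPM (3 counts, counting error only). CPM here are counts scaled to library size with TMM factors. All 9 genes passed the low-count filter in every comparison and had at least 113 counts in each library. Hepatocyte markers (10 genes) summed to between 37790 and 47135 CPM, against 22.8 to 37.0 CPM for 8 Kupffer cell markers, 54.7 to 71.7 CPM for 8 endothelial markers and 9.96 to 14.4 CPM for 8 stellate cell and fibroblast markers. The sum of 5 cholangiocyte markers was 590 to 722 CPM in control, 391 to 422 CPM with BBR, 242 to 272 CPM with OA and 199 to 240 CPM with both. Most of it was Spp1, while Krt7 was at 0 in all 3 control libraries. The hepatocyte sum was mostly Alb (28117 ± 851 CPM in control). It was 43675 CPM or more in all 6 libraries with OA and 39599 CPM or less in the other 6. At an adjusted p under 0.05 in edgeR, 1 of the 10 hepatocyte markers rose and 6 fell for BBR against control. For OA against control 6 rose and 1 fell, for BBR+OA against OA 0 rose and 2 fell, and for BBR+OA against BBR 6 rose and 1 fell. The part of these marker differences in the values below was not tested.

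Per transcript length, Igf1 was the highest of the 9 genes in control hepatocytes, at 270.9 ± 18.3 FPKM (mean ± SD, n = 3). It was followed by Igfbp1 (201.4 ± 11.0 FPKM) and Igfbp2 (108.4 ± 6.28 FPKM). Igfbp4, Ghr, Igfals and Socs2 came next at 43.3, 36.7, 20.9 and 16.3 FPKM, and Igfbp7 and Igfbp3 were lowest at 6.02 and 4.42 FPKM. No neighbours in this order overlapped between their 3 libraries. With OA, Igfbp1 moved to the top at 497.4 ± 23.5 FPKM, above Igf1 at 278.2 ± 27.1 FPKM. Igfbp7 (5.94 FPKM) and Igfbp3 (5.83 FPKM) overlapped there at the bottom. With BBR alone Igf1 kept the first place (370.5 ± 30.5 FPKM), while Igfbp4 dropped from the fourth place to the sixth at 13.6 ± 1.73 FPKM, where it overlapped Socs2 (11.8 ± 2.30 FPKM). With BBR+OA, Igfbp1 led at 558.0 ± 18.8 FPKM, and Igfbp4 (24.0 FPKM) again overlapped Socs2 (21.1 FPKM).

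**Figure D1:**
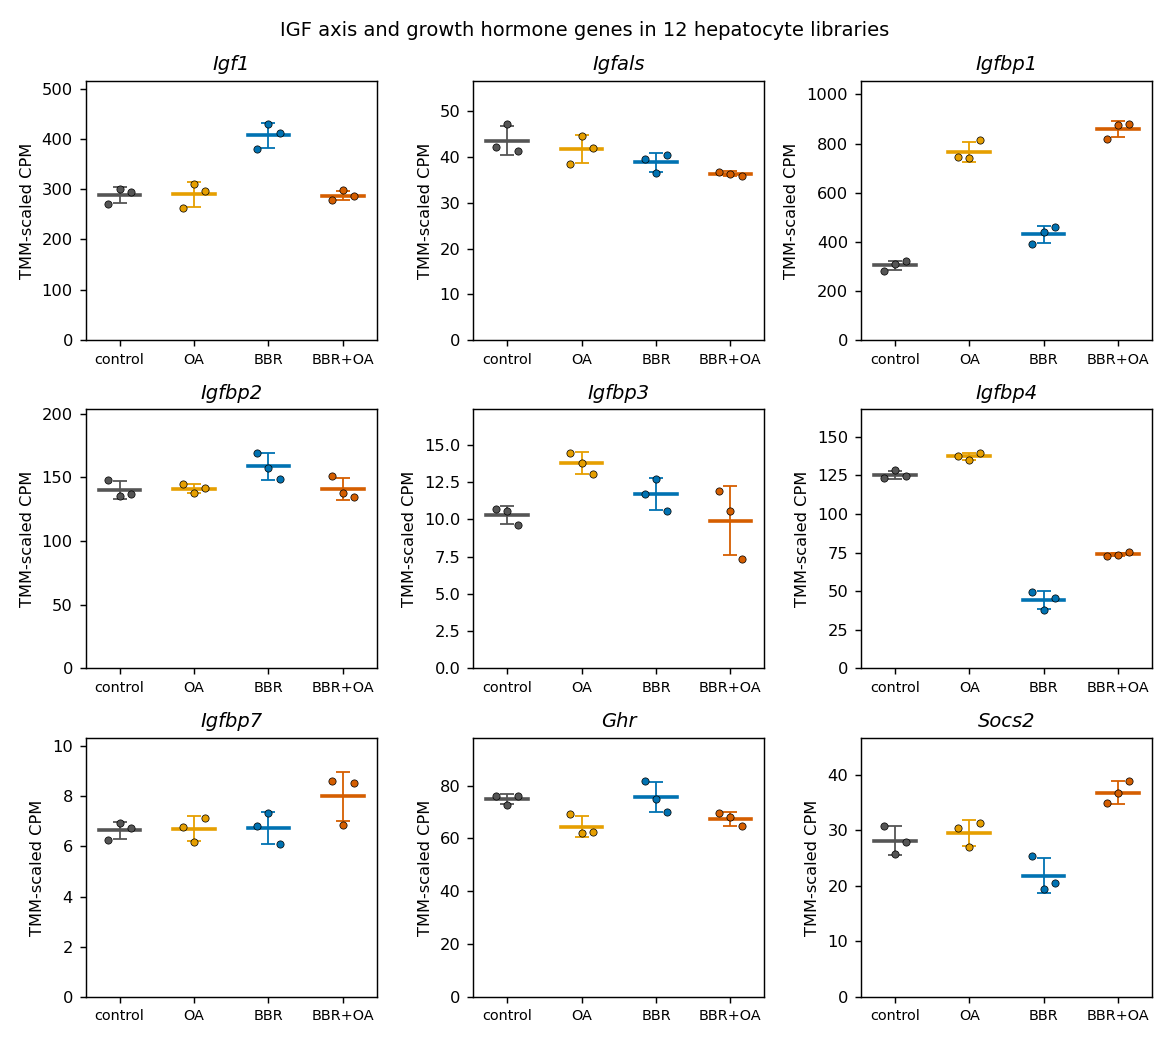
TMM-scaled CPM (linear axes from 0) of the 9 genes in each of the 12 libraries, 3 per group; points are libraries, horizontal lines are group means and bars are SD. The 3 BBR libraries lay between 379.6 and 429.2 CPM for Igf1, above all 9 others, and between 38.0 and 49.5 CPM for Igfbp4, below all 9 others.

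Igf1, the ligand, was high with BBR alone and at the control level when OA was also present. Its CPM were 269.8, 299.7 and 295.1 in control, 379.6, 429.2 and 412.3 with BBR, 261.7, 310.4 and 295.9 with OA, and 278.4, 297.3 and 285.5 with BBR+OA. The BBR libraries lay above every other library, and the remaining 3 groups overlapped one another. The fitted difference was 0.50 on the log2 scale (SE 0.055) for BBR against control, a 1.42-fold higher level, and -0.01 (SE 0.059) for BBR+OA against OA. OA against control gave 0.01 (SE 0.063), and BBR+OA against BBR gave -0.50 (SE 0.049).

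Igfals encodes the subunit that stabilizes the ternary IGF complex. Its CPM were 42.2, 47.2 and 41.4 in control, 39.5, 36.5 and 40.5 with BBR, 38.5, 44.7 and 41.9 with OA, and 36.8, 36.4 and 35.8 with BBR+OA. Both BBR groups lay below their own comparison group without overlap, by margins of under 2 CPM. The log2 difference was -0.16 (SE 0.064) for BBR against control and -0.20 (SE 0.064) for BBR+OA against OA. Igf1 and Igfals, both activated through STAT5, thus lay on opposite sides of control with BBR alone.

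Igfbp1 was the member with the largest OA difference. Its CPM were 282.2, 309.2 and 319.5 in control and 743.1, 739.6 and 814.0 with OA. With BBR they were 392.1, 441.2 and 458.3, and with BBR+OA 819.7, 875.9 and 878.8. The 4 groups did not overlap and stood in the order control, BBR, OA, BBR+OA. OA against control gave a log2 difference of 1.34 (SE 0.060), a 2.53-fold higher level that was larger than those of 99.0% of genes, and BBR+OA against BBR gave 0.99 (SE 0.055). The BBR differences were smaller, at 0.51 (SE 0.060) without OA and 0.16 (SE 0.051) with OA.

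Igfbp4 encodes a binding protein that holds IGF away from its receptor until proteases cleave it. Its CPM were 123.3, 128.3 and 124.6 in control and 137.4, 134.9 and 139.7 with OA, against 49.5, 38.0 and 45.5 with BBR and 73.1, 73.7 and 75.1 with BBR+OA. All 6 libraries with BBR lay below all 6 without it, and those with BBR+OA lay above those with BBR alone. BBR against control gave a log2 difference of -1.48 (SE 0.069), a 2.80-fold lower level, with 0.231% of genes at or below it. BBR+OA against OA gave -0.90 (SE 0.046), a 1.86-fold lower level, with 0.424% of genes at or below it. The difference of 0.14 (SE 0.046) for OA against control was 0.09 under upper quartile scaling and 0.03 as a log2 ratio of FPKM. Igfbp1 and Igfbp4 thus lay on opposite sides of control with BBR.

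Igfbp2, a binding protein that hepatocytes secrete in quantity, differed little. Its CPM were 148.0, 135.5 and 136.5 in control, 169.3, 157.6 and 148.7 with BBR, 144.4, 137.3 and 141.2 with OA, and 150.9, 137.9 and 134.6 with BBR+OA. The BBR group lay above control by 0.19 on the log2 scale (SE 0.055), with a gap of under 1 CPM between the lowest BBR and the highest control library. BBR+OA against OA gave -0.00038 (SE 0.052).

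Igfbp3 and Igfbp7 were the least abundant. Igfbp3, the main IGF carrier of blood, had 10.7, 10.6 and 9.60 CPM in control, 14.5, 13.8 and 13.0 with OA, 11.7, 12.8 and 10.6 with BBR, and 11.9, 10.6 and 7.33 with BBR+OA. OA alone lay above all 9 other libraries, by 0.43 on the log2 scale (SE 0.090) over control. BBR+OA lay below OA by -0.46 (SE 0.135), and by -0.29 without BBR+OA replicate 3, the library at 7.33 CPM. Igfbp7, which binds IGF weakly and insulin too, had between 6.08 and 8.60 CPM in the 12 libraries, and its groups overlapped in all 4 comparisons. In liver, endothelial and stellate cells express both genes. Endothelial markers summed to 58.8 to 64.7 CPM in control and 66.8 to 71.7 CPM with BBR. They summed to 54.7 to 67.7 CPM with OA and 65.1 to 65.6 CPM with BBR+OA. Of the endothelial markers tested, 3 of 8 rose for BBR against control and 1 of 7 for OA against control, and 0 fell in either. For BBR+OA against BBR 2 of 7 rose and 3 fell, and for BBR+OA against OA 0 of 7 rose or fell. Stellate markers summed to 12.2 to 14.4, 9.96 to 12.6, 11.3 to 12.7 and 10.3 to 13.6 CPM in the same order of groups. Of those tested, 1 of 6 fell for BBR against control and 1 of 5 for OA against control. In the other comparisons 0 fell, and 0 rose in any. The part of these cells in the Igfbp3 and Igfbp7 values was not tested.

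Summed over the 5 binding-protein genes, FPKM were 363.6 ± 4.52 in control, 429.9 ± 11.96 with BBR, 660.4 ± 21.8 with OA and 700.4 ± 8.79 with BBR+OA (SD, n = 3). Igfbp1 made up 55.4% of this sum in control, 65.9% with BBR, 75.3% with OA and 79.7% with BBR+OA. Igfbp4 made up 11.9%, 3.16%, 6.73% and 3.43% in the same order. The ratio of Igfbp1 to Igfbp4 in FPKM was 4.65 ± 0.305 in control, 11.2 ± 1.0 with OA, 21.2 ± 3.86 with BBR and 23.4 ± 2.62 with BBR+OA. Against Igf1, the binding-protein sum was 1.35 ± 0.081 times as high in control and 1.16 ± 0.071 times with BBR, but 2.39 ± 0.245 times with OA and 2.60 ± 0.067 times with BBR+OA. These are ratios of transcripts and not of secreted proteins.

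**Figure D2:**
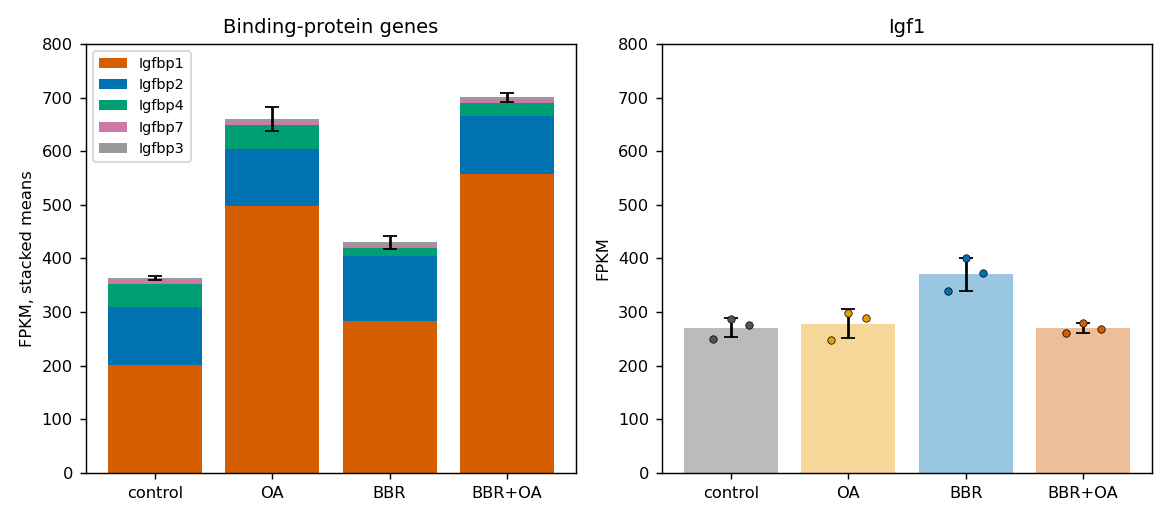
Left, mean FPKM of the 5 binding-protein genes stacked by gene in each group, with the SD of the sum over 3 libraries; right, mean FPKM of Igf1 with its SD and the 3 libraries as points, both on linear axes from 0. The stack reached 660.4 FPKM with OA and 700.4 FPKM with BBR+OA against 363.6 FPKM in control, most of it Igfbp1, while Igf1 was highest with BBR at 370.5 FPKM.

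Ghr, the GH receptor, had 76.2, 72.6 and 76.1 CPM in control, 81.8, 75.1 and 70.2 with BBR, 69.2, 62.0 and 62.3 with OA, and 69.5, 68.3 and 64.6 with BBR+OA. The 6 libraries with OA all lay below the 6 without it, with a gap of under 1 CPM (69.5 against 70.2). In FPKM they overlapped, with 35.7 in BBR+OA replicate 2 and 35.0 in BBR replicate 3. OA against control gave a log2 difference of -0.21 (SE 0.056), and BBR+OA against BBR gave -0.17 (SE 0.058). The BBR differences were 0.02 (SE 0.057) without OA and 0.06 (SE 0.058) with OA. The Kupffer cell marker C1qc, one of the 3 genes whose pattern was closest to that of Ghr, averaged 5.66 CPM in control, 6.07 with BBR, 3.73 with OA and 4.63 with BBR+OA. C1qc met the minimum mean of 5 CPM for this search only through the groups without OA, where Ghr was higher too. The 8 Kupffer cell markers of the list summed to 26.4 to 30.3 CPM in control, 22.8 to 30.1 with BBR, 24.3 to 32.0 with OA and 29.4 to 37.0 with BBR+OA. For OA against control 2 of the 8 markers rose and 6 fell, for BBR+OA against BBR 2 rose and 2 fell, and none was at 0 throughout a group. The part of Kupffer cells in the Ghr values was not tested.

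Socs2, a STAT5-induced inhibitor of GH receptor signaling, differed with BBR in opposite directions without and with OA. Its CPM were 30.9, 25.7 and 27.8 in control, 25.4, 19.5 and 20.5 with BBR, 30.4, 27.0 and 31.3 with OA, and 34.9, 36.7 and 38.9 with BBR+OA. The BBR libraries were the lowest, although the highest of them lay close to the lowest control library (25.4 against 25.7 CPM), and the BBR+OA libraries were above all others. The log2 difference was -0.35 (SE 0.094) for BBR against control, 0.31 (SE 0.071) for BBR+OA against OA and 0.74 (SE 0.087) for BBR+OA against BBR. With BBR alone Igf1 was thus highest where Socs2 was lowest.

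Of the 9 genes, 5 were past an adjusted p of 0.05 for BBR against control in edgeR's quasi-likelihood test, against a background of 27.7% of 12555 genes tested. They were 3 higher and 2 lower, with 13.2% and 14.5% of all genes. The groups did not overlap for 6 of the 9, against 41.5% of all genes. For BBR+OA against OA the count was 2 of 9 (Igfbp4 lower and Socs2 higher), with 4.59% of 12278 genes past the threshold, 1.95% higher and 2.63% lower, and 5 did not overlap, against 23.8%. OA against control gave 4 of 9, 3 higher and 1 lower, with 42.8% of 12418 genes past the threshold, 21.3% higher and 21.5% lower. The groups did not overlap for 4, against 52.2%. BBR+OA against BBR gave 6 of 9, 3 higher and 3 lower, with 38.9% of 12416 genes past it, 20.1% higher and 18.8% lower. The groups did not overlap for 5 of these, against 49.6%, and overlapped for Igfbp2. Since the members were chosen with these values known, nothing is read from these counts. The comparisons of BBR and of OA with control share the 3 control libraries.

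**Figure D3:**
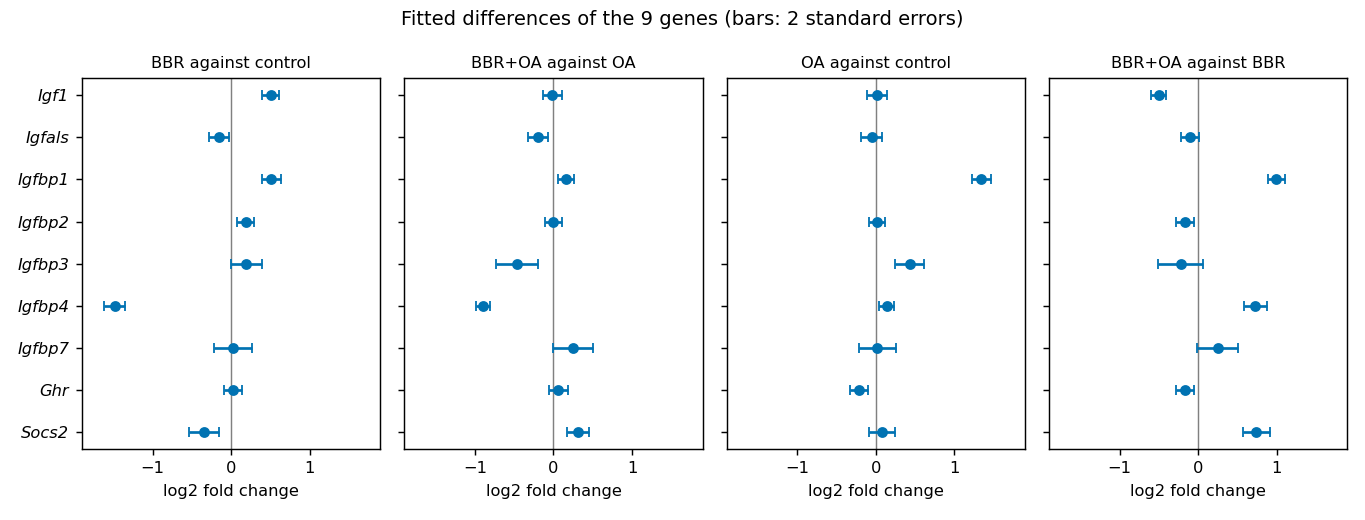
Fitted log2 fold changes of the 9 genes in the 4 comparisons, with bars of 2 standard errors on each side; the vertical line marks no difference. Igfbp4 stood at -1.48 and -0.90 in the BBR comparisons, and Igfbp1 stood at 1.34 and 0.99 in the OA comparisons.

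The BBR difference with OA minus that without OA was fitted on all 12 libraries as an interaction. It was positive for Socs2 (0.67, SE 0.128) and Igfbp4 (0.60, SE 0.088), and negative for Igfbp3 (-0.64, SE 0.178), Igf1 (-0.51, SE 0.087) and Igfbp1 (-0.34, SE 0.086). For Igfals the value was -0.04 (SE 0.093), for Ghr 0.05 (SE 0.083), for Igfbp7 0.24 (SE 0.168) and for Igfbp2 -0.18 (SE 0.078). These values are descriptions too, since the members were chosen with the levels behind them known, and nothing is read from how many of the 9 passed a threshold. Over all 12742 genes fitted, 12.2% were past an adjusted p of 0.05, 6.87% positive and 5.31% negative.

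**Figure D4:**
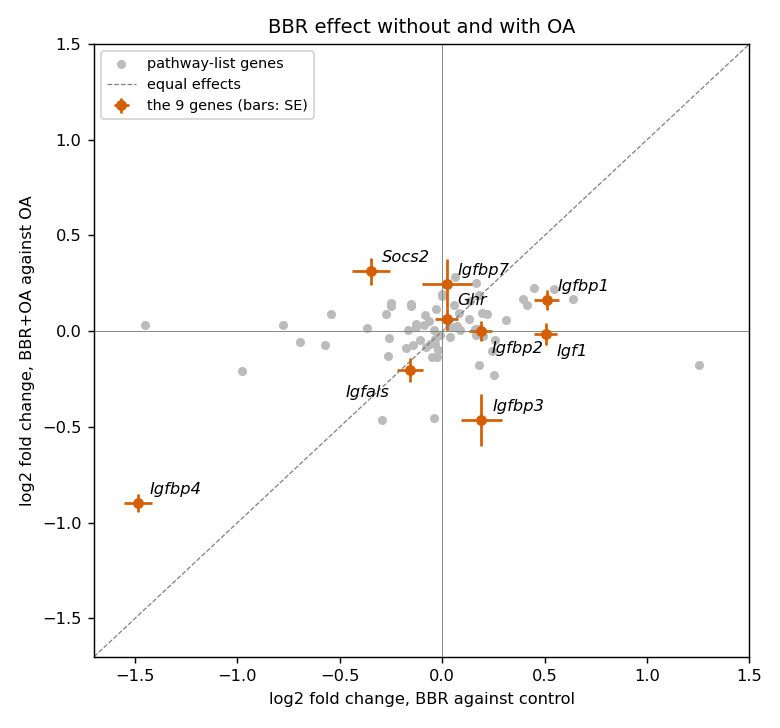
Log2 fold change for BBR against control (x axis) and for BBR+OA against OA (y axis), which share no library; orange points are the 9 genes with SE bars, grey points are pathway-list genes tested in both, and the dashed line marks equal differences. Igf1 lay at 0.50 and -0.01, Socs2 at -0.35 and 0.31, and Igfbp4 at -1.48 and -0.90.

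Genes around the 9 were taken from 4 lists of 85 genes chosen for their roles, with earlier results of these data known. Their shares past the threshold are therefore set beside those of all genes as a description only. Of the 85 genes, 84 were found in the data and none is among the 9. They are IGF ligands, receptors, other binding proteins and proteases (13 genes), GH receptor signaling and feedback (22), insulin and IGF receptor signaling (26), and liver genes that depend on the sex-specific GH pattern (24). These genes were tested with edgeR's quasi-likelihood test, two-sided, and Benjamini-Hochberg adjustment over all genes tested.

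BBR against control changed 24 of 69 pathway genes that passed the filter on low counts, 12 up and 12 down (34.8%, against 27.7% of all genes). Their median log2 fold change was -0.02, with -0.00085 over all genes. Among receptors, Igf2r, which clears IGF-2, rose by 0.45 (SE 0.05, adjusted p = 6.24e-06), from 219 ± 10 to 298 ± 15 CPM. The insulin receptor Insr fell by 0.28 (SE 0.06, adjusted p = 0.00148). The IGF-1 receptor Igf1r was at 0.660 ± 0.177 CPM in control and at most 1.03 CPM in any library, and passed the threshold in no comparison. In the GH receptor list 2 of 22 genes rose and 5 fell, with a median of -0.08. Stat5b fell by 0.37 (adjusted p = 1.34e-04), from 62.8 ± 2.3 to 48.3 ± 2.9 CPM, and Stat5a by 0.25 (adjusted p = 0.0182). Jak2, at 44.8 and 47.2 CPM, did not pass the threshold (adjusted p = 0.285). Hnf4a, a hepatocyte transcription factor, fell by 0.26 (adjusted p = 9.29e-04). The leptin receptor gene Lepr fell by 0.78 (adjusted p = 9.05e-04). The inhibitors Socs7 (0.41, adjusted p = 0.00117) and Cish (0.24, adjusted p = 0.0228) rose. The Stat5a call was lost in DESeq2 and without control replicate 2 or BBR replicate 1, at an adjusted p of 0.0636 to 0.0735. That of Cish was lost without control replicate 2, BBR replicate 2 or BBR replicate 3, at 0.0791 to 0.0959.

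Downstream of the insulin and IGF receptors, BBR raised 7 of 26 genes and lowered 4, with a median of -0.01. Irs1, an adaptor of both receptors, fell by 0.98 (SE 0.17, adjusted p = 3.73e-04), from 5.26 ± 0.30 to 2.63 ± 0.48 CPM, while Irs2 was at 16.7 and 17.2 CPM (adjusted p = 0.603). The receptor inhibitors Grb10 and Grb14 moved in opposite directions. Grb10 rose by 0.64 (adjusted p = 2.51e-05) and Grb14 fell by 0.69 (adjusted p = 5.08e-06). Pik3r1 (-0.26, adjusted p = 0.00123) and Akt2 (-0.16, adjusted p = 0.0174) also fell, the latter call being lost without control replicate 1 (adjusted p = 0.0783) or BBR replicate 2 (0.0816). Tsc1 rose by 0.31 (adjusted p = 0.00249). Of 14 sex-biased genes tested, 2 rose and 2 fell, with a median of 0.08. The male-biased Selenbp2, which may share reads with Selenbp1, fell by 1.45 (SE 0.11, adjusted p = 1.02e-07), from 32.4 ± 3.6 to 11.6 ± 2.1 CPM. Cyp7b1, an oxysterol hydroxylase higher in males, fell by 0.54 (adjusted p = 0.0035). Hsd3b5, also male-biased, rose by 1.25 (adjusted p = 0.0045) at a low level, from 1.29 to 3.13 CPM. Cyp4a12b, which may share reads with Cyp4a12a, rose by 0.39 (adjusted p = 0.0395). Its groups overlapped, and its call was lost in DESeq2 and without control replicate 2 or 3 or BBR replicate 1, at an adjusted p of 0.0613 to 0.216.

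BBR+OA against OA changed 1 of 66 pathway genes tested (1.52%, against 4.59% of all genes), with a median of 0.02 and -0.00031 over all genes. Socs3, an inhibitor induced by cytokines, fell by 0.46 (SE 0.12, adjusted p = 0.0399), from 8.98 ± 0.38 to 6.52 ± 0.77 CPM. That call was lost in DESeq2 (adjusted p = 0.0699) and without OA replicate 1, 2 or 3 or BBR+OA replicate 2 or 3, at 0.0553 to 0.161. In edgeR 0 pathway genes rose, with 7 higher and 3 lower at an unadjusted p under 0.05, and in DESeq2 2 rose. Those were Irs2 (0.29, adjusted p = 0.0545 in edgeR and 0.0447 in DESeq2) and Igf2r (0.23, adjusted p = 0.0674 and 0.0369). Without BBR+OA replicate 1 the edgeR adjusted p of Irs2 was 0.014. Stat5b was at 50.3 and 51.0 CPM, and Insr at 128 and 136 CPM.

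OA against control changed 37 of 66 pathway genes tested, 20 up and 17 down (56.1%, against 42.8% of all genes), with a median of -0.05 and -0.0060 over all genes. Insulin and IGF receptor signaling held 10 that rose and 7 that fell among 26, with a median of -0.02. Irs2, a FOXO1 target that insulin represses, rose by 1.04 (SE 0.07, adjusted p = 4.69e-08), from 16.7 ± 0.80 to 34.1 ± 1.4 CPM. Grb10 rose by 1.25 (adjusted p = 1.31e-08), from 18.2 to 43.3 CPM, and Foxo1 by 0.48 (adjusted p = 2.35e-05). The subunit genes of phosphoinositide 3-kinase differed in direction. The catalytic Pik3cb rose by 0.52 (adjusted p = 2.61e-05), and the regulatory Pik3r2 fell by 0.60 (adjusted p = 3.79e-06) and Pik3r1 by 0.44 (adjusted p = 1.28e-05). Gab1 (-0.46, adjusted p = 3.72e-04) and Foxo4 (-0.43, adjusted p = 5.78e-04) fell too. In the GH receptor list 7 of 22 rose and 7 fell, with a median of -0.04. Jak2 fell by 0.30 (adjusted p = 6.38e-04), Stat5a by 0.41 (adjusted p = 0.00111) and Stat5b by 0.31 (adjusted p = 2.79e-04). Prlr fell by 0.69 (adjusted p = 0.00164) and Lepr by 1.15 (adjusted p = 4.21e-05). Cish (0.41, adjusted p = 8.81e-04), Socs7 (0.36, adjusted p = 0.00375), Ptpn11 (0.25, adjusted p = 0.00146) and Socs3 (0.39, adjusted p = 0.0203) rose. The Socs3 call was lost without control replicate 1 or 3 or OA replicate 2, at 0.0566 to 0.0799.

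Of 5 genes tested in the IGF receptor and protease list, 1 rose and 1 fell with OA (40%, against 42.8% of all genes), with a median of -0.16. Stc2, an inhibitor of the protease that cleaves IGFBP4, rose by 1.57 (SE 0.29, adjusted p = 6.39e-04) at a low level, from 0.551 ± 0.11 to 1.65 ± 0.29 CPM. Insr fell by 0.16 (adjusted p = 0.0118, and 0.0504 without OA replicate 2). Of 13 sex-biased genes tested, 2 rose and 2 fell (30.8%), with a median of -0.06. Cyp7b1 fell by 0.85 (adjusted p = 4.70e-06), Fmo2 fell by 1.33 (adjusted p = 0.00496) from 1.52 CPM, and Selenbp2 rose by 0.50 (adjusted p = 4.66e-04). Cyp17a1 rose by 0.79 (adjusted p = 0.0241) from 1.01 CPM, a call lost in DESeq2 and without control replicate 1 or OA replicate 2, at 0.0572 to 0.0958.

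BBR+OA against BBR changed 33 of 67 pathway genes tested, 16 up and 17 down (49.3%, against 38.9% of all genes), with a median of -0.02 and -0.0061 over all genes. Insulin and IGF receptor signaling held 9 that rose and 6 that fell among 26, with a median of -0.01. Irs2 rose by 1.27 (SE 0.09, adjusted p = 6.05e-08), from 17.2 ± 0.87 to 41.8 ± 5.1 CPM, and Grb10 rose by 0.78 (adjusted p = 4.22e-06). Grb14 rose by 0.47 (adjusted p = 2.95e-04). In the IGF receptor and protease list 2 of 6 rose and 2 fell, with a median of -0.09. Igf2r fell by 0.39 (adjusted p = 1.21e-05) and Insr rose by 0.21 (adjusted p = 0.00937). Stc2 rose by 1.25 (adjusted p = 0.0018). In the GH receptor list 4 of 22 rose and 4 fell, with a median of 0.07. Ptpn11 rose by 0.25 (adjusted p = 1.52e-04) and Jak2 fell by 0.29 (adjusted p = 8.42e-04). Stat5b, at 48.3 and 51.0 CPM, did not pass the threshold (adjusted p = 0.305). Pik3r2 fell by 0.45 (adjusted p = 3.06e-05) and Foxo4 by 0.35 (adjusted p = 0.00381). Of 13 sex-biased genes tested, 1 rose and 5 fell, with a median of -0.13. Selenbp2 rose by 1.98 (SE 0.12, adjusted p = 1.50e-08), to 46.5 ± 6.6 CPM, and Hsd3b5 fell by 1.14 (adjusted p = 0.00406). Socs4, of the SOCS inhibitor family, rose by 0.25 (adjusted p = 0.00876).

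Other calls of that comparison were lost under some alternatives, with log2 fold changes of the same sign. Irs1 rose by 0.56 (adjusted p = 0.026), a call lost in DESeq2 and without BBR replicate 2 or 3 or BBR+OA replicate 1 or 3, at an adjusted p of 0.0583 to 0.0966 and log2 fold changes of 0.45 to 0.57. Lepr fell by 0.34 (adjusted p = 0.032), lost in DESeq2, in the fit of all 12 libraries and without BBR replicate 2 or BBR+OA replicate 1 or 2, at 0.0699 to 0.127 and -0.34 to -0.26. Gab1 fell by 0.34 (adjusted p = 0.0109), lost without BBR replicate 3 (0.0596, at -0.26) or BBR+OA replicate 2 (0.0574, at -0.27). Fmo2 fell by 1.16 (adjusted p = 0.0138), lost without BBR replicate 1 (0.0742, at -0.94) or BBR+OA replicate 3 (0.0636, at -0.97). Cyp4a12b fell by 0.39 (adjusted p = 0.0261), lost without BBR replicate 1 or BBR+OA replicate 1 or 3, at 0.0505 to 0.157 and -0.41 to -0.23. Htra1, a protease that cleaves binding proteins, fell by 1.68 (adjusted p = 0.00867), from 0.594 to 0.184 CPM, lost in DESeq2 (0.0593, at -1.71) and without BBR+OA replicate 1 (0.0501, at -1.37). The phosphatase genes Ptpn2 (0.18, adjusted p = 0.0326) and Ptpn1 (-0.16, adjusted p = 0.0399) lost their calls in DESeq2 and without BBR replicate 1 and BBR+OA replicates 2 and 3. The Ptpn2 call was also lost without BBR replicate 2 and under upper quartile scaling, and that of Ptpn1 without BBR replicate 3 and with no filter on low counts. Over all these settings the adjusted p ran from 0.0596 to 0.153, and the log2 fold change from 0.14 to 0.18 for Ptpn2 and from -0.16 to -0.13 for Ptpn1. Mup1 (-0.13, adjusted p = 0.0284) and Mup3 (-0.13, adjusted p = 0.0277), of a family whose copies may share reads, lost theirs without BBR replicate 1 and BBR+OA replicates 2 and 3, and Mup3 also without BBR replicate 2 and BBR+OA replicate 1, at 0.0504 to 0.122 and log2 fold changes of -0.14 to -0.09.

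**Figure D5:**
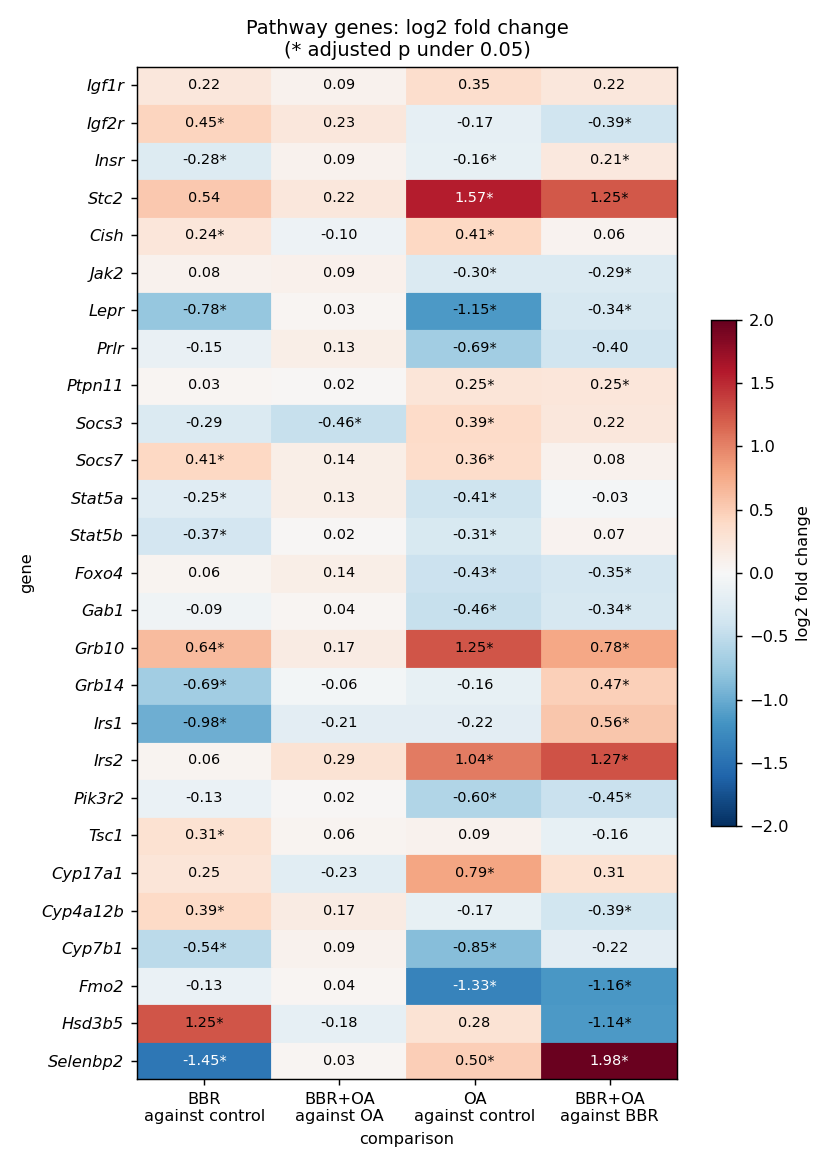
Log2 fold change of the named pathway genes (rows, grouped by list) in the 4 comparisons (columns), on a colour scale from -2 to 2 with red for higher; an asterisk marks an adjusted p under 0.05 in edgeR. The column for BBR+OA against OA holds 1 asterisk, at Socs3.

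The interaction of BBR and OA was past the threshold for 12 of 69 pathway genes, 10 positive and 2 negative (17.4%, against 12.2% of all genes), with a median of 0.02 and 0.012 over all genes. The largest was Selenbp2 at 1.496 (SE 0.17, adjusted p = 2.06e-05), which fell with BBR alone and was at 45.4 and 46.5 CPM with OA and BBR+OA. Grb14 (0.65, adjusted p = 6.97e-04), Stat5b (0.40, adjusted p = 0.00136) and Insr (0.38, adjusted p = 0.00243) were positive too. Grb10 was negative at -0.46 (adjusted p = 0.015). For Jak2 the value was 0.02 (SE 0.07, adjusted p = 0.903), and for Irs2 0.23 (SE 0.12, adjusted p = 0.214). Without OA replicate 2 the count was 6, and without BBR replicate 2 it was 7. Other values passed only under alternatives. Cish (-0.35 to -0.33) passed under RLE or upper quartile scaling, with no filter, in DESeq2 and with a replicate block. Hsd3b5 (-1.44 to -1.42) passed with no filter, in DESeq2 and with the block. With the block Igf2r (-0.21), Tsc1 (-0.24) and Akt2 (0.18) passed too. Over all genes, 875 positive and 676 negative became 782 and 761 under RLE scaling and 720 and 713 in DESeq2.

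For each of the 9 genes, the 3 genes with the most similar pattern were found by Pearson's r of log2 CPM over the 12 libraries, among 9645 genes. The points are libraries of 4 groups of 3 and are not independent, so r is given as a description. Igfbp1 was closest to Foxo1 (r = 0.989), followed by Tubb4b (0.988) and Serinc3 (0.985). Foxo1 averaged 26.1 CPM in control, 28.5 with BBR, 36.4 with OA and 38.2 with BBR+OA. Igf1 was closest to Sema7a (0.986), then to Ndufa4l2 (0.978). Sema7a averaged 13.9 ± 4.88 CPM with BBR and 1.95 to 2.35 CPM in the other groups. It met the minimum mean of 5 CPM only through the BBR libraries, where Igf1 was high too. The filter itself thus favoured this match. Igfbp4 was closest to Sumo3 (0.972), Acat3 (0.971) and Nr5a2 (0.966), a nuclear receptor of hepatocytes that averaged 25.3 CPM in control and 18.0 with BBR. Socs2 was closest to Ephx2 (0.963), the soluble epoxide hydrolase gene, which averaged 59.7 CPM in control, 46.2 with BBR, 60.2 with OA and 67.5 with BBR+OA. The others were less closely matched: Igfbp2 to Fabp1 (0.949), Ghr to Parp11 (0.928), Igfbp3 to Dgkd (0.908), Igfals to Etv6 (0.899) and Igfbp7 to Slc35a5 (0.827). Among the 9 themselves, r was most negative for Igf1 with Socs2 (-0.83), Igf1 with Igfbp4 (-0.81) and Igfbp1 with Ghr (-0.78), and most positive for Igfbp2 with Ghr (0.63).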

How the data were processed

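RNA from 12 libraries of primary mouse hepatocytes (4 groups of 3, taken from the sample titles) was poly(A)-selected, reverse transcribed from random primers and sequenced by Illumina HiSeq. For each library the authors deposited a table of 22471 features with estimated counts and FPKM. The deposited FPKM values are scaled by length and depth by the authors, and the TMM factors used here were not applied to them. They were used for levels between genes, for the sums, shares and ratios of the binding-protein genes, and as an alternative to counts. For Igfbp4 in BBR against control, the log2 ratio of FPKM was -1.68, and the difference fitted on counts was -1.48. Submitters' processing notes name build mm10; the aligner, the quantifier and strand use are not given in the sources used here. Fractional counts (2862 features, 0 of the 9 genes) were rounded. Of 21911 Ensembl identifiers, 99.7% were found in GENCODE M21 (GRCm38). Promoter windows came from RefSeq.

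Counts were fitted with edgeR 4.0.16 in R 4.3.3 (TMM, filterByExpr with a minimum count of 10, quasi-likelihood F test, two-sided, Benjamini-Hochberg over all genes tested, threshold 0.05), each comparison on its own 6 libraries and the interaction on all 12. DESeq2 1.42.0 was an alternative, beside other scalings, no filter, a replicate block and leaving out each library. FPKM in place of counts was added after seeing the data. The F statistic gave the SE of each log2 fold change. Fits were tested on simulated data. CPM means are given with SD (n = 3). Likeness used genes with a mean of at least 5 CPM.

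The 9 genes, the pathway lists and the markers were chosen with earlier results of these data known. In each list and comparison, the 2 largest rises and 2 largest falls past the threshold were named where the higher group averaged 1 CPM or more, besides 7 core genes (Igf1r, Insr, Irs1, Irs2, Jak2, Stat5a and Stat5b). Hnf4a, Foxo1, Foxo3, Pik3cb, Pik3r1, Akt2, Htra1, Socs4, Ptpn1, Ptpn2, Mup1 and Mup3 were named after their values were seen. C4a was not used here, and some genes that met the rule are not reported here. Libraries of a group differed by more than counting noise in every pair (chi-square per degree of freedom 2.76 to 7.62), so none was merged.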

Additional observations from a re-analysis of the deposited data

Results flagged for a closer look

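The BBR difference with OA minus that without OA, tested as an interaction on all 12 libraries (edgeR, adjusted over all genes), was past the threshold for the pathway genes named here. Grouped by role, the values on the log2 scale were as follows. Among receptors, it was 0.38 for Insr (adjusted p = 0.00243) and 0.82 for Lepr (0.0193). Among transcription factors, it was 0.24 for Hnf4a (adjusted p = 0.0311), 0.40 for Stat5b (0.00136), 0.39 for Stat5a (0.0309) and -0.30 for Foxo3 (0.0425). Among adaptors of the insulin receptor, it was 0.78 for Irs1 (adjusted p = 0.0193), 0.65 for Grb14 (6.97e-04) and -0.46 for Grb10 (0.015). Among genes that depend on the GH pattern, it was 1.496 for Selenbp2 (adjusted p = 2.06e-05) and 0.64 for Cyp7b1 (0.021).

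Of these, 6 lost the threshold when 1 library was left out, 1 of them also in DESeq2. For Irs1 this was OA replicate 2, BBR replicate 2, BBR replicate 3 or BBR+OA replicate 1 (adjusted p from 0.0535 to 0.062), and for Lepr OA replicate 2 (0.0609) or BBR+OA replicate 3 (0.0692). For Cyp7b1 it was OA replicate 2, BBR replicate 2, BBR replicate 3 or BBR+OA replicate 3 (0.0565 to 0.0719). For Stat5a it was DESeq2 and any library but control replicate 3, OA replicate 3, BBR replicate 3 and BBR+OA replicate 2 (0.0557 to 0.107). For Hnf4a it was any library but control replicate 3, OA replicate 1, OA replicate 3 and BBR replicate 1 (0.052 to 0.135). For Foxo3 it was any library but control replicate 3, OA replicate 3, BBR replicate 1 and BBR+OA replicate 3 (0.051 to 0.120).

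Socs2 stood out because its 3 BBR libraries all lay below control while its 3 BBR+OA libraries all lay above OA. The fitted difference was 0.67 on the log2 scale (SE 0.128), and it is given as a description with no p-value, since the gene was chosen with its values known. Groups of 3 libraries are too small for a test of single outlying samples.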

How the results depend on the processing

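No value turned its direction past the threshold under any alternative, and 619 alternative values of the 9 genes moved by less than the spread between replicates, with the other 2 belonging to Igfbp4 in OA against control. Those of the pathway genes named numbered 2336 on the same side of the threshold, 111 that lost it and 55 that gained it. BBR+OA against OA was the least stable comparison. Its 563 changed genes became 216 to 632 with 1 library left out (249 on leaving out OA replicate 2, and 373, 230 and 216 on leaving out BBR+OA replicates 1, 2 and 3). Its 1 pathway gene became 3 with no filter on low counts, 2 in DESeq2, 4 in 1 fit of all 12 libraries and 0 to 2 with 1 library left out. With 1 library left out, the interaction gave 1027 to 1679 changed genes in place of 1551 (1027 without OA replicate 2, 1028 without BBR replicate 2) and 6 to 17 pathway genes in place of 12. Upper quartile scaling turned the split for OA against control from 2643 higher and 2669 lower to 2077 and 3216, and for BBR+OA against BBR from 2496 and 2330 to 1976 and 2870. The cause was not tested.

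Replicate numbers are shared between groups, and same-numbered libraries deviated together weakly, always in the same direction (r from 0.0234 to 0.155). Counting noise enters this r, and whether they shared a preparation was not tested. The main fits did not treat them as pairs. With a replicate block, BBR+OA against OA had 1333 changed genes and 4 changed pathway genes, and the interaction had 2265 changed genes and 19 pathway genes. Changed genes were also more in BBR against control (4154 in place of 3484), OA against control (6628 in place of 5312) and BBR+OA against BBR (5280 in place of 4826). Depth limits Igf1r, Stc2, Htra1, Fmo2 and Cyp17a1, which averaged under 2 CPM in each group. It also limits Hsd3b5, which averaged 3.13 CPM with BBR and 1.29 to 1.56 CPM in the other groups.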
